A study of Homo sapiens and Canis lupus familiaris with 27 samples.

Results

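CT1258, a cell line derived from a prostate carcinoma of a dog, was compared after 24 h and after 12 h with PDA-66, an indolylmaleimide, at 15 μM. These are 6 of the 27 samples of the study, 3 samples per incubation time, and they were chosen by cell line and treatment alone. A further 3 CT1258 samples received the vehicle, 0.15% DMSO, for 24 h. These DMSO samples took no part in the test of 24 h against 12 h. Their levels are given beside it for part of the genes. PC-3 and LNCaP, cell lines from human prostate carcinomas that received the same 3 treatments, served to test where the change from 12 h to 24 h differed. No DMSO sample was labelled with 12 h, so longer exposure to PDA-66 and longer time in culture cannot be told apart. Per the study's methods, the replicates of each treatment were independent biological replicates.

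Cells answer misfolded protein in the endoplasmic reticulum (ER) or a shortage of amino acids with linked programs. The unfolded protein response (UPR) raises ER chaperones such as HSPA5. Phosphorylation of the translation factor eIF2α favours translation of ATF4, a transcription factor that switches on amino acid transporters, amino acid synthesis and the factor DDIT3 (CHOP). In the cell cycle, genes of DNA replication are transcribed around S phase and genes of the mitotic spindle and its checkpoint towards mitosis. Messenger RNAs of tubulins, the building blocks of microtubules, are degraded when free tubulin is abundant.

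The PDA-66 samples had 7203534 to 8325867 counts after 12 h and 7444226 to 8226593 after 24 h, so that the mean totals differed by a factor of 1.006. The DMSO samples had 19909616 to 20976950 counts, and DMSO replicate 2 stood apart from the other DMSO samples. The replicates of the PDA-66 groups varied with a biological coefficient of variation of 0.0584, the relative spread beyond counting error. When the DMSO samples entered the fit this value was 0.1. The chi-square per gene between 2 samples is near 1 where only counting error separates them. It was 1.57 between 12 h replicates 1 and 2. Between the other pairs of PDA-66 samples of the same time it was 3.22 to 7.41. Whether 12 h replicates 1 and 2 were independent was not tested. Of 22 markers of epithelium and prostate, a list that also held the mesenchymal VIM and CDH2, 14 were in the table. Of these, 9 stayed under 1 CPM (read counts scaled to a common library size) in all 9 CT1258 samples, among them EPCAM and TP63. GAPDH and ENO1, which every cell uses, were also listed at 0 in this table, so a level of 0 does not show that a gene was not expressed. The members of this list above 10 CPM were the prostate marker STEAP1 and the mesenchymal marker CDH2 (N-cadherin). The 9 markers of blood, vessel and stroma cells in the table together had 12.0 to 15.1 CPM after 12 h and 12.8 to 15.5 CPM after 24 h.

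Between 12 h and 24 h, 3497 of 9738 tested genes (35.9%) passed the threshold of an adjusted p-value under 0.05 in edgeR's quasi-likelihood F test and are called DEGs here. Of these, 1686 (17.3%) were higher and 1811 (18.6%) were lower after 24 h. Most of the changes were small, with a median log2 fold change of 0.36 among the higher and -0.39 among the lower DEGs. A log2 fold change of at least 1 in size was reached by 35 higher and 86 lower DEGs. The ranges of both groups did not overlap in 4534 genes (46.6%). At a stricter threshold of 0.001, 1172 genes passed. With the DMSO samples in the same fit, 1907 genes passed at 0.05. Between samples, the leading log2 fold change distance over 500 genes was 0.694 ± 0.048 (SD, 3 pairs) within the 12 h group, 0.727 ± 0.022 within the 24 h group and 1.04 ± 0.037 (9 pairs) between the times. Every distance between the times was larger than every distance within a time.

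**Figure D1:**
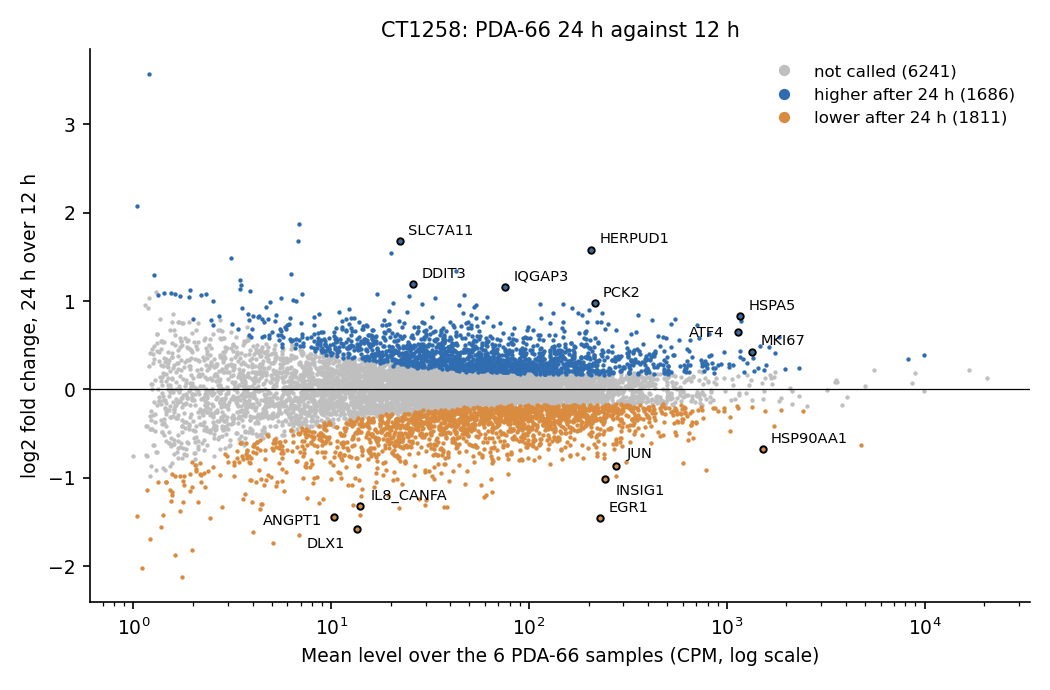
Log2 fold change (24 h over 12 h) of the 9738 tested genes of CT1258 against their mean level in the 6 PDA-66 samples (CPM, log scale). Points mark genes higher (1686, blue) or lower (1811, orange) after 24 h or not called (6241, grey), and named genes are ringed. SLC7A11 and HERPUD1 stand highest and DLX1 and EGR1 lowest among the ringed genes.

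Of the genes that reached 10 CPM on average and whose ranges at both times were separate, the largest increase was found for SLC7A11, the cystine/glutamate antiporter. Its level was 10.8, 11.99 and 8.82 CPM after 12 h, 30.1, 38.7 and 33.1 CPM after 24 h and 72.02, 39.7 and 77.2 CPM in DMSO. It was 3.20 times as high after 24 h as after 12 h (log2 fold change 1.68 ± 0.13 (SE), adjusted p = 1.17e-08). HERPUD1, a component of ER-associated degradation, followed at a log2 fold change of 1.58. The other 10 of the 12 largest increases included DDIT3 (1.19), the GTPase scaffold gene IQGAP3 (1.16), ACAD10 of the acyl-CoA dehydrogenase family (1.08), the ER protein gene CRELD2 (1.06) and the glycine transporter SLC6A9 (1.06). They also included FST, the activin antagonist follistatin (1.04), mitochondrial phosphoenolpyruvate carboxykinase PCK2 (0.98) and 3 genes listed only by a canine protein entry, Q6Q2K4_CANFA (1.54), Q005W6_CANFA (1.34) and F1PWF8_CANFA (0.98).

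Of the genes that reached 10 CPM on average with separate ranges, the largest decrease was that of DLX1, a homeobox transcription factor. Its level was 19.4, 21.1 and 20.2 CPM after 12 h, 7.36, 6.16 and 6.78 CPM after 24 h and 7.99, 10.99 and 10.3 CPM in DMSO, and it was 2.99 times as high after 12 h as after 24 h (log2 fold change -1.58 ± 0.13, adjusted p = 2.50e-08). EGR1, a transcription factor of the immediate early response, had 345, 294 and 370.3 CPM after 12 h, 134, 112 and 122 CPM after 24 h and 267, 237 and 248 CPM in DMSO (log2 fold change -1.46 ± 0.08). It was thus above DMSO after 12 h and below it in every sample after 24 h. ANGPT1, the ligand of the vessel receptor TIE2, had 14.1, 16.1 and 15.1 CPM after 12 h, 7.00, 5.90 and 3.66 CPM after 24 h and 2.18, 1.74 and 2.19 CPM in DMSO and fell by 1.44 on the log2 scale. The other genes of this group were the RhoGAP gene ARHGAP28 (-1.42), FAM178A (-1.34), the TGF-beta-induced PMEPA1 (-1.33), the microRNA-processing gene DGCR8 (-1.33) and the chemokine gene IL8_CANFA (-1.32). IFI44 (-1.31), the potassium channel gene KCNQ5 (-1.31), the RNA cleavage factor gene CSTF3 (-1.25) and GLCCI1 (-1.24) completed it.

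The genes were also read by lists of pathway members. Over all 9738 genes tested, the median log2 fold change was 0.00, and the lists are described against that and against the shares of 17.3% and 18.6% given above. No list was tested as a set.

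**Figure D2:**
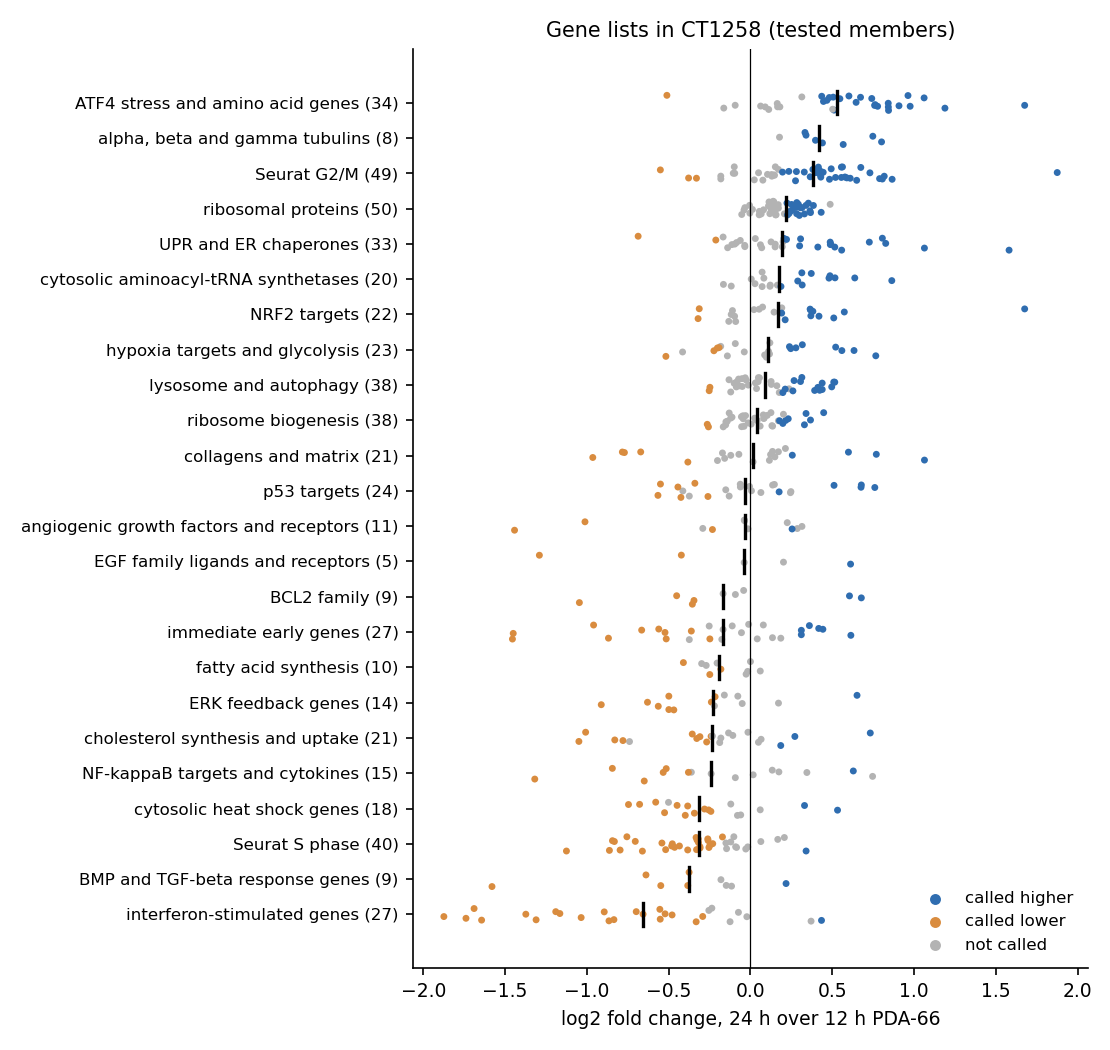
Log2 fold change (24 h over 12 h, x axis) of each tested member of the gene lists with at least 5 tested members in CT1258, with the number tested in brackets. Black bars are medians, and blue, orange and grey points were called higher, called lower or not called. The highest median is that of the ATF4 list (0.53) and the lowest that of the interferon-stimulated genes (-0.66), a list chosen after the values were seen.

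Of 33 tested genes of the UPR and ER folding, 15 rose and 2 fell from 12 h to 24 h, with a median log2 fold change of 0.19. HSPA5, the main chaperone of the ER lumen (BiP), had 890.0, 883 and 751 CPM after 12 h, 1174, 1697 and 1616 CPM after 24 h and 2152, 2501 and 2192 CPM in DMSO. It rose in all 24 h samples above the 12 h range (log2 fold change 0.83 ± 0.10, adjusted p = 4.17e-06) and remained below every DMSO sample. HERPUD1 had 111, 98.8 and 100.2 CPM after 12 h, 229.6, 362 and 338 CPM after 24 h and 241, 283 and 228 CPM in DMSO (adjusted p = 6.48e-09). Its 24 h levels overlapped those of DMSO, whereas all 12 h levels were lower. In both genes, 24 h replicate 1 was the lowest of its group, and without it the log2 fold changes were 0.98 for HSPA5 and 1.76 for HERPUD1. CALR, a lectin chaperone, had 530.5, 541 and 526 CPM after 12 h, 845, 889 and 915 CPM after 24 h and 1894, 2112 and 1861 CPM in DMSO and thus remained below all DMSO samples (24 h against 12 h 0.73 ± 0.07, adjusted p = 7.10e-08). CRELD2 (1.06, adjusted p = 4.52e-08) and SDF2L1 (0.81, adjusted p = 7.27e-07), both ER-resident proteins, rose as well. The members that fell were SEC24D (-0.69, adjusted p = 2.18e-07), part of the vesicle coat that exports cargo from the ER, and ERN1 (-0.21, adjusted p = 0.0165), which encodes the stress sensor IRE1. ERN1 lost the call without 12 h replicate 2, 24 h replicate 2 or 24 h replicate 3, and without 12 h replicate 3 the number that fell was 5. DNAJB9, a cofactor of HSPA5, had 217, 199 and 162 CPM after 12 h and 165, 246 and 256 CPM after 24 h, which overlapped (adjusted p = 0.2), although it passed without 24 h replicate 1.

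Of 34 tested genes linked to ATF4, stress and amino acid supply, 23 rose and 1 fell, with a median of 0.53. ATF4 itself had 878, 837 and 963 CPM after 12 h, 1362, 1450.5 and 1385 CPM after 24 h and 1626, 2244 and 1661 CPM in DMSO (log2 fold change 0.65 ± 0.07, adjusted p = 9.57e-07). The 3 ranges did not overlap, in the order 12 h, 24 h, DMSO. DDIT3 had 15.3, 13.3 and 18.7 CPM after 12 h, 30.9, 38.7 and 38.4 CPM after 24 h and 59.7, 94.5 and 62.1 CPM in DMSO (adjusted p = 3.60e-07), in the same order. TRIB3, a pseudokinase downstream of ATF4, had 127, 128 and 144 CPM after 12 h, 236, 243 and 239.5 CPM after 24 h and 427, 601 and 474 CPM in DMSO (adjusted p = 2.13e-08). Genes of amino acid transport and synthesis followed. The transporter subunit SLC3A2, partner of SLC7A11, had 104, 99.5 and 97.8 CPM after 12 h, 187, 207 and 195 CPM after 24 h and 459.6, 624 and 483 CPM in DMSO (log2 fold change 0.96 ± 0.07, adjusted p = 3.41e-09). ASNS, asparagine synthetase, had 392, 394 and 384 CPM after 12 h, 593, 703 and 664 CPM after 24 h and 710.3, 806 and 693 CPM in DMSO (log2 fold change 0.74 ± 0.07, adjusted p = 1.31e-07), and its 24 h range reached into that of DMSO. PSAT1 of serine synthesis (0.84, adjusted p = 1.17e-08), PCK2 (adjusted p = 3.20e-09) and SLC6A9 (adjusted p = 2.55e-07) rose too. CHAC1, which degrades glutathione, had 30.5, 33.8 and 35.4 CPM after 12 h, 57.9, 37.6 and 46.1 CPM after 24 h and 101, 194 and 124 CPM in DMSO and a smaller difference (0.51 ± 0.12, adjusted p = 0.0022). The member that fell was SLC38A2, a transporter of neutral amino acids (-0.51, adjusted p = 1.97e-04).

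Against DMSO, the median log2 fold change of the ATF4 list was -1.47 after 12 h and -0.92 after 24 h, and that of the UPR list was -0.40 after 12 h and -0.10 after 24 h. Both comparisons share the DMSO samples, and the 12 h samples are shared with the comparison of the times, so these values are not independent of it. The DMSO comparisons come from a fit of all 9 samples in which the deeper DMSO group also holds the sample that stood apart.

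**Figure D3:**
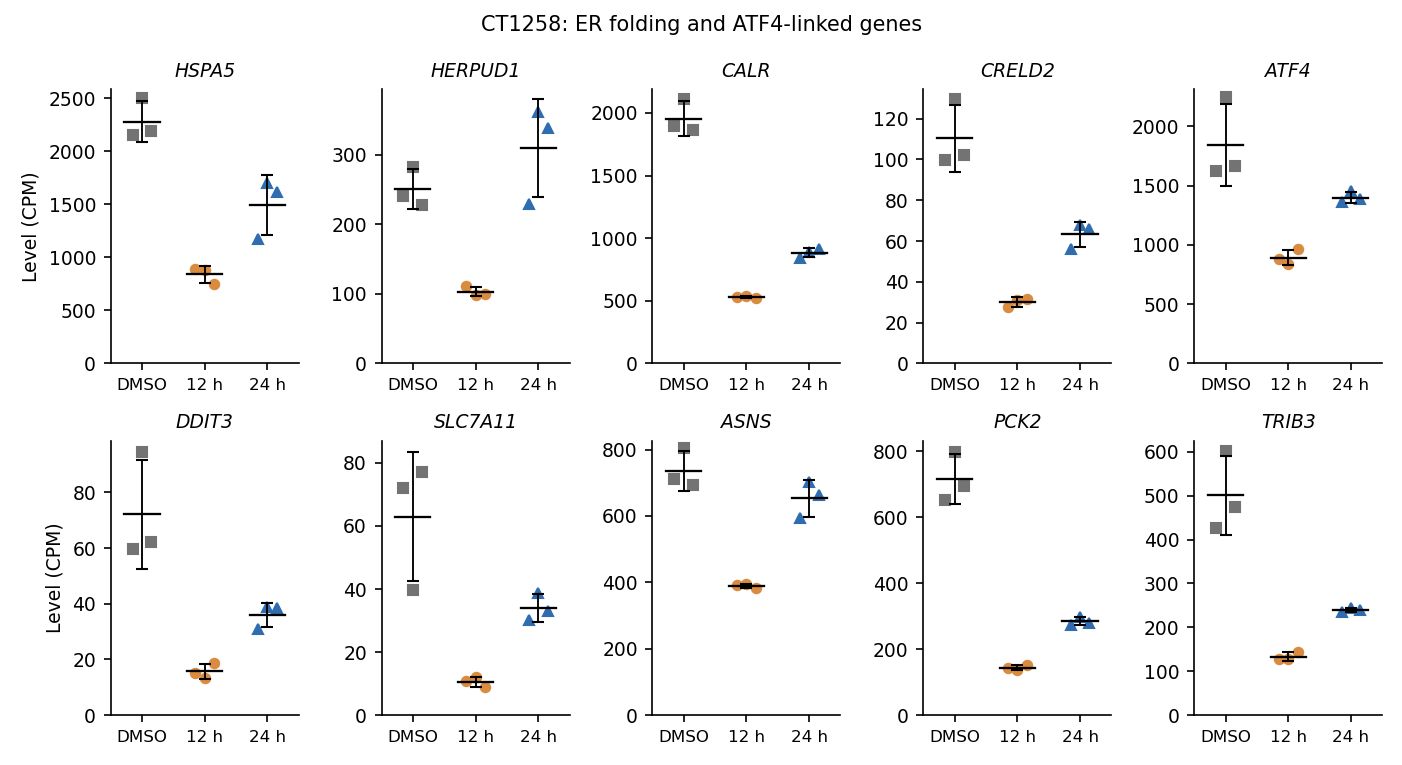
Levels (CPM, linear axis from 0) of 10 ER folding and ATF4-linked genes in the 9 CT1258 samples, 3 each for DMSO and for either time with PDA-66. Symbols are samples, bars mean and SD. In every panel the 12 h samples are lowest, and the 24 h samples reach the DMSO range in HERPUD1 and ASNS.

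Of 20 cytosolic aminoacyl-tRNA synthetases, which charge tRNAs with amino acids, 10 rose and 0 fell. The smallest p-values were those of CARS, YARS, MARS and SARS. CARS, for cysteine, had 32.8, 32.02 and 33.5 CPM after 12 h, 58.4, 60.6 and 60.4 CPM after 24 h and 89.3, 116 and 94.2 CPM in DMSO (log2 fold change 0.86 ± 0.08, adjusted p = 7.87e-08). YARS, for tyrosine, differed by 0.64 ± 0.06 (adjusted p = 2.48e-07), SARS, for serine, by 0.49 ± 0.06 and MARS, for methionine, by 0.52 ± 0.07. Among 22 tested targets of the antioxidant factor NRF2, 10 rose and 2 fell. Apart from SLC7A11, which stands in both lists, these included the autophagy receptor SQSTM1 (0.51, adjusted p = 7.97e-06), the NRF2 inhibitor KEAP1 (0.42, adjusted p = 2.83e-04) and thioredoxin reductase TXNRD1 (0.37, adjusted p = 4.56e-04). The quinone reductase NQO1 had 717, 722 and 686 CPM after 12 h, 790.3, 1029.5 and 956 CPM after 24 h and 2669, 2626 and 2573 CPM in DMSO (adjusted p = 0.00108). Its 24 h levels stayed below DMSO. Thioredoxin TXN (-0.31, adjusted p = 0.00122) and UGDH (-0.32, adjusted p = 0.00401) fell.

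Genes of S phase and of mitosis moved in opposite directions. Of 40 S phase genes, 28 fell and 1, CDC45, rose, with a median of -0.31. With the DMSO samples in the fit, 17 fell. UNG, which removes uracil from DNA, had 20.6, 19.7 and 18.4 CPM after 12 h, 8.22, 9.31 and 9.50 CPM after 24 h and 6.35, 10.99 and 6.36 CPM in DMSO (log2 fold change -1.13 ± 0.13, adjusted p = 9.16e-07). UHRF1, which maintains DNA methylation, had 288, 273 and 269 CPM after 12 h, 179, 148 and 165 CPM after 24 h and 126, 151 and 137 CPM in DMSO (adjusted p = 1.29e-07). HELLS, a chromatin remodeller, had 119, 119 and 99.3 CPM after 12 h, 63.7, 62.6 and 68.5 CPM after 24 h and 21.2, 21.9 and 19.5 CPM in DMSO (adjusted p = 2.17e-07). In these genes, the 12 h samples were highest. The replication clamp PCNA (-0.66, adjusted p = 4.29e-07) and cyclin E2 (CCNE2, -0.83, adjusted p = 4.06e-04) fell likewise. MCM5 of the replicative helicase had 112, 111 and 123 CPM after 12 h, 90.1, 75.4 and 83.1 CPM after 24 h and 111, 157 and 125 CPM in DMSO (adjusted p = 5.04e-05), with 24 h lowest. CDC45, a partner of that helicase, rose by 0.34 ± 0.07 (adjusted p = 0.00137).

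Of 49 genes of G2 and mitosis, 31 rose and 3 fell, with a median of 0.38. Against DMSO, the median was 1.24 after 12 h and 1.63 after 24 h. Cyclin B1 (CCNB1), the partner of CDK1 at entry into mitosis, had 107, 110.0 and 120.0 CPM after 12 h, 170.0, 183 and 193 CPM after 24 h and 13.2, 15.4 and 13.2 CPM in DMSO (24 h against 12 h 0.69 ± 0.07, adjusted p = 2.93e-07). The 3 ranges were separate, in the order DMSO, 12 h, 24 h. The same order was found for the mitotic kinase PLK1, with 109, 103 and 118 CPM after 12 h, 186, 185 and 191 CPM after 24 h and 86.9, 90.4 and 80.1 CPM in DMSO (adjusted p = 5.74e-08), and for the spindle checkpoint kinase BUB1, with 127, 131 and 119.9 CPM after 12 h, 211, 239 and 240.0 CPM after 24 h and 61.7, 53.9 and 53.4 CPM in DMSO (adjusted p = 2.15e-08). GTSE1 (0.81), the checkpoint target CDC20 (0.79) and the kinesin KIF23 (0.65) rose with adjusted p-values of 3.54e-08, 4.80e-08 and 1.62e-07. CDC20 was below every DMSO sample after 12 h (mean 305 against 382 CPM) and above every DMSO sample after 24 h (529 CPM). The proliferation marker MKI67 had 1185, 1157 and 1104 CPM after 12 h, 1581, 1518 and 1545 CPM after 24 h and 492, 238 and 549 CPM in DMSO (adjusted p = 6.71e-05), and DMSO replicate 2 was the lowest of all samples. The members that fell were TOP2A, a DNA topoisomerase (-0.55, adjusted p = 7.35e-06), HN1 (-0.33) and CBX5 (-0.38). CDK1 (-0.18, adjusted p = 0.0759) and HMMR (0.14, adjusted p = 0.19) did not pass the threshold, but CDK1 passed without 12 h replicate 3 or 24 h replicate 3 and HMMR without 24 h replicate 1. Without 12 h replicate 3, 6 members fell.

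Of 8 tested tubulin genes, 7 rose and none fell, with a median of 0.42. TUBB6 had 371, 394 and 429.5 CPM after 12 h, 754, 661 and 672 CPM after 24 h and 713, 806 and 720.4 CPM in DMSO (log2 fold change 0.80 ± 0.07, adjusted p = 8.21e-08), so that the 24 h samples overlapped with DMSO while the 12 h samples were lower. TUBB had 539.6, 573 and 530.1 CPM after 12 h, 802, 715 and 716 CPM after 24 h and 861, 949 and 881 CPM in DMSO (adjusted p = 5.46e-05). TUBA1B had 1024, 1097 and 1076 CPM after 12 h, 1523, 1238 and 1294 CPM after 24 h and 1972, 2681 and 2033 CPM in DMSO (adjusted p = 0.00206). Both remained below DMSO after 24 h. TUBB4A had 55.2, 50.6 and 54.4 CPM after 12 h, 101, 84.2 and 84.4 CPM after 24 h and 30.3, 33.7 and 29.2 CPM in DMSO (adjusted p = 7.13e-07) and was, unlike these, lowest in DMSO. Tubulin genes resemble each other closely, and the handling of reads that match more than 1 of them is not given in the sources used here.

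**Figure D4:**
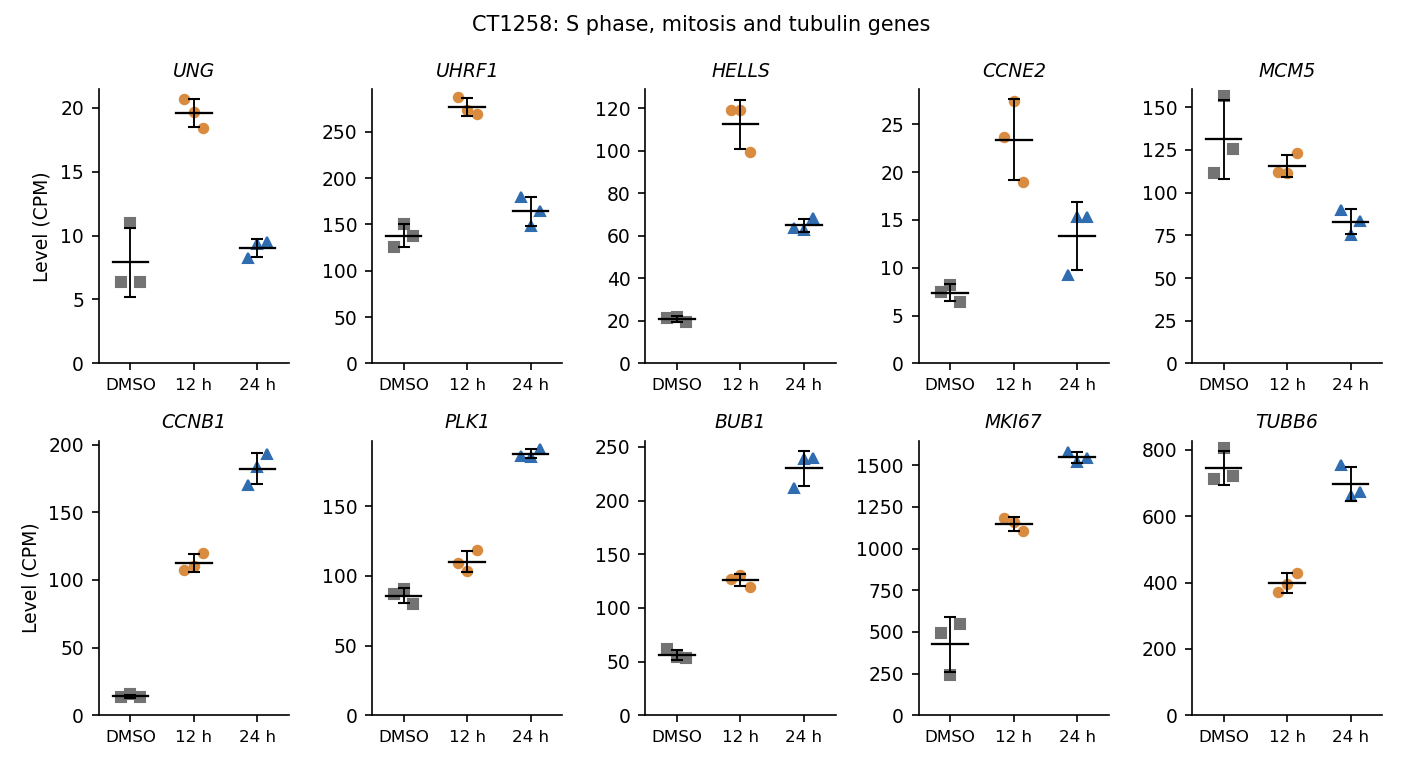
Levels (CPM, linear axis from 0) of 5 S phase genes (UNG to MCM5), 4 genes of G2, mitosis and proliferation (CCNB1 to MKI67) and TUBB6 in the 9 CT1258 samples. Symbols are samples, bars mean and SD. S phase genes are lower after 24 h than after 12 h, while CCNB1, PLK1, BUB1 and MKI67 rise from DMSO over 12 h to 24 h.

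Signalling genes that respond within minutes to growth factors were mixed. Of 27 immediate early genes, 10 fell and 6 rose. JUN, a component of the AP-1 factor, had 358, 329.8 and 383 CPM after 12 h, 197, 198 and 194 CPM after 24 h and 214, 272 and 229.7 CPM in DMSO (log2 fold change -0.87 ± 0.07, adjusted p = 1.68e-08), highest after 12 h. The phosphatase DUSP1 (-0.56, adjusted p = 1.13e-05) and the matrix protein CYR61 (-0.52, adjusted p = 1.46e-05) fell as EGR1 and JUN did. BTG1 (0.44), MAFF (0.42), KLF6 (0.36) and KLF4 (0.61) rose, with adjusted p-values from 2.24e-04 to 0.00109. MYC had 357, 311 and 339.9 CPM after 12 h and 360.2, 357 and 348 CPM after 24 h, which overlapped (adjusted p = 0.38). Of 14 genes that ERK signalling induces, among them genes that dampen it, 8 fell and 1, PHLDA1, rose. The ERK phosphatase DUSP6 had 414, 391 and 387 CPM after 12 h, 287, 290.0 and 286 CPM after 24 h and 397, 421 and 390.4 CPM in DMSO (log2 fold change -0.47 ± 0.06, adjusted p = 9.26e-06), and its 12 h range overlapped that of DMSO. The receptor signalling inhibitors SPRY1 (-0.91, adjusted p = 4.75e-07) and SPRY4 (-0.56, adjusted p = 2.40e-04), the phosphatase DUSP5 (-0.50) and the factor ETV1 (-0.50) fell too.

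Ligands gave single DEGs in both directions. Among 5 tested genes of the EGF family, neuregulin NRG1 rose (0.61 ± 0.07, adjusted p = 9.28e-07), while EREG (-0.42 ± 0.07, adjusted p = 7.27e-05) and HBEGF (-1.29 ± 0.24, adjusted p = 2.34e-04) fell. HBEGF was at a low level, with means of 6.38 CPM after 12 h and 2.59 CPM after 24 h. Of 11 angiogenic factors and receptors, ANGPT1 (adjusted p = 2.07e-06), HGF_CANFA and NRP2 fell and VEGFC rose, but NRP2 lost the call without 12 h replicate 1. The called share of this list was 36.4%, near the 35.9% of all genes tested. HGF_CANFA, the ligand of the MET receptor, had 88.7, 94.02 and 75.4 CPM after 12 h, 39.03, 41.8 and 47.7 CPM after 24 h and 22.5, 19.6 and 23.1 CPM in DMSO (log2 fold change -1.01 ± 0.09, adjusted p = 6.94e-08), highest after 12 h. VEGFA_CANFA had 791, 764 and 711 CPM after 12 h and 807, 691 and 714 CPM after 24 h, which overlapped (adjusted p = 0.72). Of 9 tested BMP and TGF-beta response genes, 5 fell, among them DLX1, DLX2 (-0.64), SMAD9 (-0.38) and SKIL (-0.38), and LTBP2 rose (0.22), a call lost without 12 h replicate 3 or 24 h replicate 1. Of 15 NF-κB targets and cytokines, 6 fell and 1, IL1B_CANFA, rose. The NF-κB inhibitor NFKBIA had 48.5, 48.8 and 47.7 CPM after 12 h and 29.6, 24.9 and 26.3 CPM after 24 h, with a mean of 55.4 ± 9.27 CPM (SD, n = 3) in DMSO (log2 fold change -0.84 ± 0.09, adjusted p = 4.29e-07), lowest after 24 h. IL8_CANFA had 21.8, 20.4 and 17.5 CPM after 12 h, 8.22, 6.03 and 9.77 CPM after 24 h and 2.38, 3.48 and 3.97 CPM in DMSO (adjusted p = 1.24e-06), so that it remained above DMSO.

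Of 21 genes of cholesterol synthesis and uptake, 9 fell and 3 rose. INSIG1, the sterol-sensing brake of the pathway, had 329, 335 and 311 CPM after 12 h, 165, 157 and 164 CPM after 24 h and 380.2, 460.3 and 359 CPM in DMSO (log2 fold change -1.01 ± 0.06, adjusted p = 2.68e-09). It was lowest after 24 h. MSMO1 (-0.78) and FDFT1 (-0.33) of cholesterol synthesis fell, while PMVK (0.73) rose. Of 10 genes of fatty acid synthesis, the desaturase SCD (-0.41), ACLY (-0.25) and ACACA (-0.18) fell and none rose, a called share of 30% beside 35.9% of all genes tested. ACACA lost the call without 12 h replicate 1 or 2 or 24 h replicate 2 or 3, and without 12 h replicate 3 the number that fell was 5.

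Cytosolic heat shock genes fell in 11 of 18 cases and rose in 2, with a median of -0.31. The chaperone HSP90AA1 had 1919, 1893 and 1780.2 CPM after 12 h, 1172, 1143 and 1189 CPM after 24 h and 434, 522 and 429 CPM in DMSO (log2 fold change -0.68 ± 0.07, adjusted p = 3.39e-07), which placed 24 h between 12 h and DMSO. Its co-chaperone FKBP4 (-0.58), DNAJB1 (-0.53) and DNAJB4 (-0.75) fell, whereas the regulator HSF1 (0.53) and the small heat shock protein gene CRYAB (0.33) rose.

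Survival and p53 genes showed no common direction. Of 24 p53 targets, 5 rose, among them SFN (0.76, adjusted p = 4.52e-08) and GADD45A (0.68, adjusted p = 1.95e-07), and 6 fell, among them C12orf5 (-0.57) and the phosphatase PPM1D (-0.55). The shares were 20.8% higher and 25% lower, beside 17.3% and 18.6% of all genes tested. After 24 h, SFN (mean 277 CPM) and GADD45A (129 CPM) remained below every DMSO sample (means 417 and 268 CPM). PPM1D was below and C12orf5 above every DMSO sample. Against DMSO, the list median was 0.03 after 12 h and -0.19 after 24 h. MDM2 passed at 0.18 ± 0.07 (adjusted p = 0.0469) and lost the call under 12 of 19 alternatives, among them those without 12 h replicate 1 or 2 or 24 h replicate 2 or 3. In the BCL2 family, the apoptosis inhibitor BCL2 had 23.8, 21.1 and 23.5 CPM after 12 h, 12.4, 10.4 and 10.3 CPM after 24 h and 6.60, 6.42 and 4.82 CPM in DMSO (log2 fold change -1.05 ± 0.12, adjusted p = 1.40e-06). BCL2L11 (-0.45), BCL2A1 (-0.36) and BAK1 (-0.35) also fell, while BAX (0.68, adjusted p = 2.99e-04) and B2CL2_CANFA (0.61) rose. After 24 h, BAX remained below every DMSO sample (mean 19.9 against 29.9 CPM), and B2CL2_CANFA overlapped DMSO. BCL2A1 and BAK1 lost their calls without 12 h replicate 3, 24 h replicate 2 or 24 h replicate 3, and 2 members fell without either of the latter samples.

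Of 23 hypoxia and glycolysis genes, 8 rose, led by carbonic anhydrase CA9 (0.63) and the lactate transporter SLC16A3 (0.77), and 4 fell, among them PFKFB4 (-0.52) and HK2 (-0.22). The number that fell was 2 without 12 h replicate 1, where HK2 lost its call, and 1 without 12 h replicate 2, where PFKFB4 did. After 24 h, CA9 (mean 233 CPM) and SLC16A3 (62.1 CPM) remained below every DMSO sample (means 569 and 157 CPM). Against DMSO, the median of the hypoxia and glycolysis list was -0.67 after 12 h and -0.56 after 24 h. Of 21 collagen and matrix genes, 4 rose, with laminin LAMB1 at 0.77, and 5 fell, with fibrillin FBN1 at -0.78 and COL1A2 at -0.96, but 3 fell without 12 h replicate 2 or 24 h replicate 2. The shares of 19% higher and 23.8% lower were near those of all genes tested (17.3% and 18.6%). Lysosome and autophagy genes rose in 14 and fell in 2 of 38 cases, with the cholesterol transporters NPC1 (0.42) and NPC2 (0.41) among those that rose. The number that fell was 1 without 12 h replicate 1 or 2 or 24 h replicate 2 or 3, and 3 without 24 h replicate 1. Of 38 ribosome biogenesis genes, 8 rose and 2 fell, a called share of 26.3% beside 35.9% of all genes tested. Without 12 h replicate 1 or 2, 4 rose, without 24 h replicate 1 or 3, 5 rose, and without 12 h replicate 3, 4 fell. Of 50 ribosomal protein genes, 24 rose and none fell, among them RPS10 (0.43) and RPL3 (0.38), but this count was 15 without 12 h replicate 2, 37 without 12 h replicate 3 and 2 with DMSO in the fit. The share of counts on the 11 mitochondrial rows was 4.41% to 5.88% after 12 h and 5.03% to 6.38% after 24 h, and its part in these changes was not tested.

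To learn where CT1258 differed from the human cell lines, the change from 12 h to 24 h was compared in a joint fit. The human reads had been mapped with another tool and to another genome, which cannot be told apart from the cell line. Against PC-3, 2358 of 10822 genes (21.8%) differed in this change, and 1113 of these were more positive in CT1258. Of 32 panel genes compared, 25 differed. HSPA5 rose in CT1258 and fell in PC-3 (-0.84), a difference of 1.65 ± 0.14 (adjusted p = 2.78e-08). DDIT3 likewise fell in PC-3 (-0.42, difference 1.59 ± 0.15, adjusted p = 2.41e-07). TRIB3 (0.49) and SLC7A11 (0.46) rose in PC-3 too, by less than in CT1258 (adjusted p of the difference = 0.0114 and 4.77e-05). DUSP6 and SPRY4 rose in PC-3, by 0.63 and 0.78, and fell in CT1258 (adjusted p of the difference = 1.63e-08 and 3.34e-07). EGR1, which fell in CT1258, had a log2 fold change of 0.05 in PC-3 (difference -1.52 ± 0.17, adjusted p = 1.72e-06).

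By list, 20 of 39 S phase genes compared with PC-3 had a more negative change in CT1258 and none a more positive one. Of 48 G2 and mitosis genes, 24 were more positive in CT1258 and 2 more negative. Of 31 UPR genes, 15 were more positive and 1 more negative, and of 38 genes of the ATF4 list, 21 and 1. Beside these counts, 2358 of all 10822 genes compared (21.8%) differed in either direction, 1113 of them more positive in CT1258. Of 11 tubulin genes tested in PC-3, 4 rose, beside 20.6% of all genes tested in PC-3 that changed in either direction. TUBB was one of them (0.56), and its difference from CT1258 was -0.13 ± 0.09 (adjusted p = 0.32). TUBB6 had -0.14 in PC-3 (adjusted p of the difference = 6.76e-06). TUBA1B rose by more in PC-3 (0.73, adjusted p of the difference = 0.0101).

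Against LNCaP, 103 of 10674 genes (0.965%) differed. LNCaP 12 h replicate 2 stood apart from the other LNCaP samples, at distances of 0.856 to 0.963 on the log2 CPM scale, while the others lay 0.206 to 0.356 apart. Without it, 1762 genes (16.6%) differed. With all LNCaP samples, SLC7A11 differed by 2.19 ± 0.39 (adjusted p = 0.0302) and without that sample by 2.48 (adjusted p = 5.64e-11). HERPUD1 differed by 1.33 ± 0.21 with it and by 1.36 without it, and PLK1 by 1.69 ± 0.32 and 1.28. EGR1 had -1.85 in LNCaP and did not differ past the threshold from CT1258 (difference 0.39 ± 0.33, adjusted p = 0.57). Of 48 genes of G2 and mitosis, 9 differed with all samples, all of them more positive in CT1258. Without that sample 40 differed, 37 of them more positive in CT1258.

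**Figure D5:**
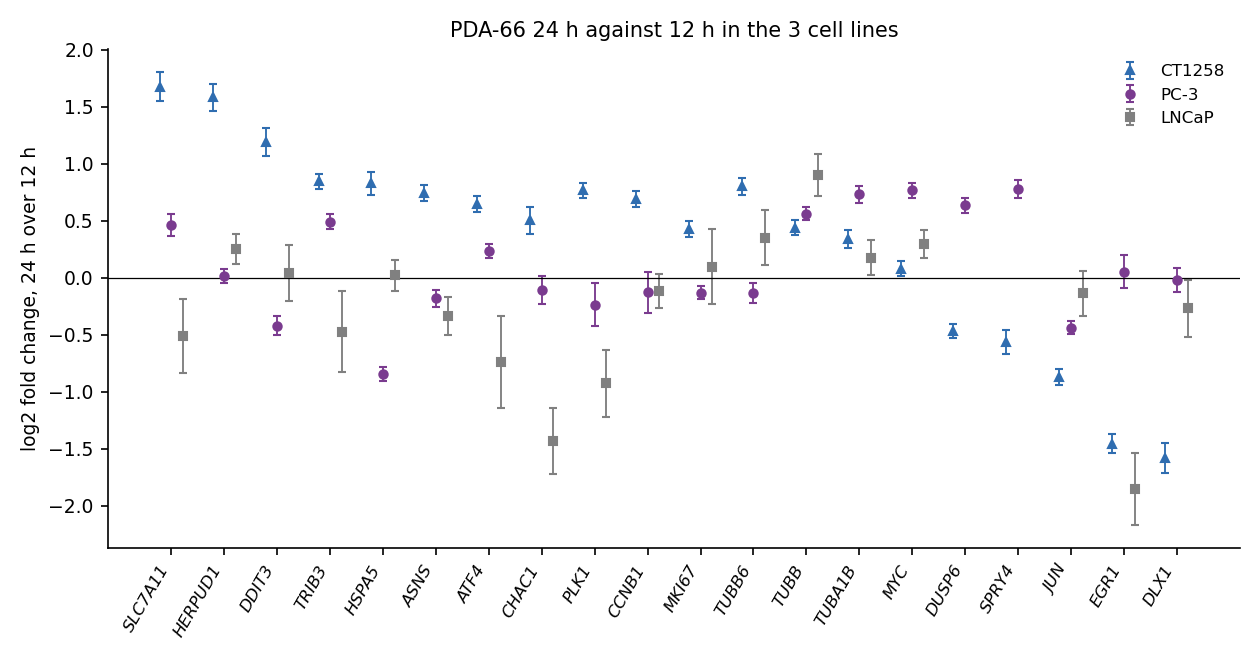
Log2 fold change (24 h over 12 h PDA-66, y axis) of 20 panel genes in CT1258, PC-3 and LNCaP, each fitted alone with all its samples. Bars are standard errors. HSPA5, DDIT3 and HERPUD1 stand highest in CT1258, and DUSP6 and SPRY4 lie on opposite sides of 0 in CT1258 and PC-3. DUSP6 and SPRY4, filtered out in LNCaP, have no square.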

How the data were processed

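RNA of CT1258, PC-3 and LNCaP cells was selected for poly(A) and sequenced from 1 end. Per the labels and the methods, the canine reads were aligned with BWA to CanFam3.1 and the human reads with STAR 2.3.1s to hg19. The authors deposited whole-number counts of reads per gene, without normalization, for 16028 canine genes. Strand use and the treatment of reads matching more than 1 gene are not given in the sources used here. Trailing separators in 1 PC-3 column were removed.

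The 6 PDA-66 samples of CT1258 were fitted with edgeR 4.0.16 in R 4.3.3 (filterByExpr, TMM, quasi-likelihood F test, Benjamini-Hochberg adjustment, threshold 0.05). CPM were scaled over all 9 CT1258 samples, whose joint fit gave the comparisons with DMSO. The cell lines were compared by the interaction of line and time, over 14436 genes shared by symbol. The labels give 2 of the PC-3 12 h samples the same code, so these were used by group only. Alternatives used DESeq2 1.42.0 and limma 3.58.1, and figures Python 3.11.15. Intervals from counting error were not computed, since the replicate spread enters every test.

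Named were the 12 DEGs in each direction with the largest log2 fold change, 10 CPM or more on average and separate ranges, up to 4 DEGs per list and direction by p-value, and a panel of 39 genes, of which 33 were tested. The panel, the 26 lists and these rules were chosen with earlier results of these data known. Both cell cycle lists are those of Seurat, and the others follow general knowledge. The interferon list was added after the values were seen. Same-numbered replicates of both times were not paired: their deviations correlated at -0.194, -0.052 and -0.211. No canine genome was at hand, so no position or sequence is given. Results of some genes are not reported here, although list counts include them.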

Additional observations from a re-analysis of the deposited data

Results flagged for a closer look

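The change from 12 h to 24 h differed between CT1258 and a human cell line, by the test of the difference itself, for 25 of 32 panel genes against PC-3 and for 8 of 32 against LNCaP. Of all genes compared, 21.8% differed against PC-3 and 0.965% against LNCaP. The panel was chosen with earlier results of these data known. The values in brackets are the change in CT1258 minus that in the other line, on the log2 scale. Against PC-3, the change was more positive in CT1258 for ASNS (0.91), ATF4 (0.40), CCNB1 (0.80), CHAC1 (0.60), DDIT3 (1.59), HERPUD1 (1.55), HSPA5 (1.65), MDM2 (0.36), MKI67 (0.54), NQO1 (0.42), PLK1 (0.99), SDF2L1 (1.30), SLC7A11 (1.20), TRIB3 (0.34), TUBB6 (0.93) and TXNRD1 (0.41). It was more negative in CT1258 for ANGPT1 (-1.97), DLX1 (-1.58), DUSP6 (-1.12), EGR1 (-1.52), JUN (-0.44), MYC (-0.70), SPRY4 (-1.35) and TUBA1B (-0.41). Against LNCaP, it was more positive for ASNS (1.08), CCNB1 (0.81), CHAC1 (1.93), HERPUD1 (1.33), PLK1 (1.69) and SLC7A11 (2.19) and more negative for DLX1 (-1.32). In each comparison, 1 of the genes that differed is not listed. Without the LNCaP sample that stood apart, 23 of 32 panel genes differed, beside 16.6% of all genes compared. All groups compared hold 3 samples, so single samples were not tested as outliers.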

How the results depend on the processing

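No gene was called in the opposite direction under any alternative. At the stricter threshold of 0.001, 1172 genes passed (510 higher, 662 lower), and with a log2 fold change of at least 1 in size, 121 (35 higher, 86 lower). With the DMSO samples in the fit, 1907 passed (898 higher, 1009 lower), and with the threshold of 0.001, an alternative chosen after seeing the data, 211 (84 higher, 127 lower). With all samples but DMSO replicate 2, also chosen after seeing the data, 3672 genes passed. Fits that left out 1 PDA-66 sample called 2605 to 3861 genes, 1240 to 1888 of them higher and 1365 to 1973 lower. The fewest were called without 12 h replicate 2 and the most without 12 h replicate 3. With the replicate block, which the deviations of same-numbered samples do not call for, 2843 genes passed. Scaling by DESeq2's or by the plain library sizes, other filters on low counts and other tests (DESeq2 Wald, edgeR likelihood ratio, limma voom with quality weights) called 2821 to 4489. Of the named genes, VEGFA_CANFA, which is no DEG, ranged from -0.1054 to 0.0061 when 1 sample was left out and was positive without 24 h replicate 2. ERN1, LTBP2, ACACA and MDM2 lost their calls under 8, 7, 9 and 12 of 19 alternatives. With the DMSO samples in the fit, 25 named genes lost their calls, among them MKI67, CHAC1, RPS10, VEGFC, HN1 and TUBA1B. Over all tested genes instead of 500, the distances were 0.226 within 12 h, 0.234 within 24 h and 0.375 between the times. Against PC-3, 4055 genes differed with limma voom and 538 at 0.001, and 3263 without PC-3 24 h replicate 3, which lay farthest from its group. Against LNCaP, 2828 differed with limma voom and 1762 without LNCaP 12 h replicate 2. At 0.001, edgeR called 0 genes against LNCaP (1509 at an unadjusted p under 0.05) and limma voom 725. The cause of these shifts was not tested. Leaving out the PC-3 and the LNCaP sample was chosen after seeing the data. With the DMSO samples in the fit, the cholesterol genes that fell numbered 5 and the lysosome genes that rose 9. At this depth, genes of a few CPM rest on few reads, and small changes in them may not have been detectable.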

Other observations

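Interferon-stimulated genes, products of the antiviral response, were among the genes with lower levels after 24 h, and this list was made after the values were seen. Of 27 tested members of 49 listed, 20 fell and 1 rose, with a median log2 fold change of -0.66, beside 18.6% of all genes tested that fell. OAS1, a sensor of double-stranded RNA, had 88.9, 90.1 and 91.95 CPM after 12 h, 44.4, 39.1 and 37.3 CPM after 24 h and 34.97, 44.3 and 36.3 CPM in DMSO (log2 fold change -1.17 ± 0.08, adjusted p = 2.97e-09). IFI44 had 44.5, 46.3 and 35.95 CPM after 12 h, 15.2, 17.05 and 19.1 CPM after 24 h and 10.8, 11.7 and 11.5 CPM in DMSO (adjusted p = 4.61e-08). In both, the 12 h samples were highest, and in OAS1 the 24 h samples overlapped the DMSO range. IRF1, a transcription factor of the interferon response, had 27.04, 24.3 and 29.4 CPM after 12 h, 11.9, 12.3 and 11.1 CPM after 24 h and 23.9, 25.2 and 23.2 CPM in DMSO (adjusted p = 1.67e-07), lowest after 24 h. The ubiquitin-like modifier ISG15 had 8.39, 7.08 and 8.02 CPM after 12 h, 2.58, 2.49 and 1.90 CPM after 24 h and 3.22, 4.13 and 3.48 CPM in DMSO (adjusted p = 2.22e-06) at a low level. The RNA sensor IFIH1 (-0.55, adjusted p = 1.85e-05) and PARP9 (-0.89, adjusted p = 4.97e-06) fell as well. The member that rose was B2M, the light chain of MHC class I (0.43, adjusted p = 2.29e-04).

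In PC-3, 18 of 33 tested members of this list rose from 12 h to 24 h and 1 fell, beside 20.6% of all genes tested in PC-3 that changed in either direction. The change differed between CT1258 and PC-3 in 25 of 35 members compared, of which 23 were more negative in CT1258, beside 21.8% of all genes compared. Against LNCaP, 1 of 34 members differed with all samples, beside 0.965% of all genes compared. Without the sample that stood apart 12 differed, 11 of them more negative in CT1258, beside 16.6% of all genes. The list was made after the values were seen, and the same CT1258 values enter the comparisons with PC-3 and LNCaP. This choice favoured more negative changes in CT1258, so these counts are no separate support.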
